A study of Mus musculus with 18 samples.

Results

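The microRNA (miRNA) precursor clusters of the Mouse Transcriptome Array were examined in the abdominal aorta of male mice. A cluster is the set of probes that the array reads as one transcript. All clusters whose single gene symbol is a miRNA gene name (Mir or Mirlet followed by a digit) were taken, which gave 1018 of 65956 clusters, with 926 distinct symbols. The array class was miRNA precursor for 894, a complex of several transcript types for 103 and noncoding RNA for 21. Of these, 2 are host transcripts of miRNAs, Mir143hg and Mir99ahg.

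The study profiled aneurysms raised with porcine pancreatic elastase (PPE) and asked what oral lenvatinib, an inhibitor of receptor tyrosine kinases, did to the aortic wall. Arrays came from 7 aneurysms of mice given elastase and lenvatinib (PPE + Lenva systemic), 6 aneurysms of mice given elastase alone (PPE) and 5 aortas of untreated mice (normal aorta), 1 array per mouse. The labels give the mice as 10 weeks old, lenvatinib was gavaged daily at 5 mg/kg in DMSO on days 7 to 24, and tissue was taken on day 28. Whether the PPE mice received vehicle is not stated, so lenvatinib cannot be told apart from DMSO, gavage and the anaesthesia given for it. The labels describe all mice as ApoE-deficient, whereas the methods of the study describe wild-type mice for this model, so the strain is not settled here. Because normal aortas came from untreated mice, operation and elastase cannot be told apart. In about 1 mm of bulk tissue, fewer cells of a type and less RNA per cell cannot be told apart either.

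A miRNA is transcribed as a long primary transcript, often from an intron of a protein-coding host gene. Drosha and Dgcr8 cut a hairpin from it in the nucleus, Dicer1 trims the hairpin in the cytoplasm, and one strand is loaded into an Argonaute protein. The loaded strand pairs with target mRNAs mainly through its seed, a short stretch near its 5′ end. In the vessel wall, the miR-143 and miR-145 pair is known as a marker and regulator of contractile smooth muscle, and miR-155 and miR-146a are known from activated macrophages. The array labels total RNA, so a precursor cluster reads primary transcript, hairpin and overlapping host RNA together and does not measure the mature miRNA on its own.

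Mature sequences were taken from RefSeq (build GRCm38.p6), in which 772 of the 926 symbols have one. Those printed here belong to the loci on which the results turn, written 5′ to 3′ with the seed (bases 2 to 8) in capitals. A first set comes from a pair of related loci, the Mir100 locus on chromosome 9 and the Mir99ahg transcript on chromosome 16, each of which carries a miR-99/100, a let-7 and a miR-125b gene on the plus strand.
miR-100-5p: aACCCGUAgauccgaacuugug
miR-99a-5p: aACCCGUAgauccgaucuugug
let-7a-5p: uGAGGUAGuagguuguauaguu
let-7c-5p: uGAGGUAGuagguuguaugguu
miR-125b-5p: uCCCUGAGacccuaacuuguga
The miR-100-5p (chr9:41531437-41531458) and miR-99a-5p (chr16:77598940-77598961) sequences share their seed and differ at 1 base, and let-7a-5p and let-7c-5p (chr16:77599672-77599693) likewise differ at 1 base. The let-7a entry printed lies at another copy (chr13:48538239-48538260, minus strand). The miR-125b-5p sequence is identical at both loci (chr9:41581940-41581961 and chr16:77646279-77646300).

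A second set belongs to other clusters called lower in PPE. The miR-196a seed (chr15:102973365-102973386) is shared by 2 mature names, the miR-302d seed (chr3:127545665-127545687) by 5, and the miR-701 seed (chr5:111004170-111004190) by no other in the RefSeq table.
miR-196a-5p: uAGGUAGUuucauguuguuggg
miR-302d-3p: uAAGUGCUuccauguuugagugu
miR-701-5p: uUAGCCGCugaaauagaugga

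The last set comes from clusters whose mean was higher in PPE, with or without lenvatinib, than in normal aorta, not all of them called. They lie at chr16:84714143-84714165 (miR-155), chr11:43374435-43374456 on the minus strand (miR-146a), chr2:14261051-14261072 (miR-511) and chr17:6895259-6895279 on the minus strand (miR-692), and none shares its seed with another of the set.
miR-155-5p: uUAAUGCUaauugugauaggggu
miR-146a-5p: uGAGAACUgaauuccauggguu
miR-511-3p: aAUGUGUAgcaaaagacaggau
miR-692: aUCUCUUUgagcgccucacuc

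Most precursor clusters were dim, as were most clusters of the array. Their level, the mean of the 3 group averages on the log2 scale of the array, had a median of 4.27 against 4.09 over all clusters, and 67.5% lay under 5, against 67.9% of all clusters. The array software flagged 783 as expressed in PPE + Lenva systemic, 784 in PPE and 776 in normal aorta. At the other end, 7 clusters reached 19.93, the highest value the scale allows, in all 3 groups, where no difference can show.

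Levels differed by position. In RefSeq, 905 clusters overlapped the gene of their name, with a median level of 4.19 and a median width of 84 bases. Another 61 clusters carried a miRNA name at a place where RefSeq has no such gene, and these had a median level of 8.99 and a median width of 115448 bases. The 15 whose name was not matched had a median level of 6.97, and 37 had no coordinates. In addition, 90 clusters shared all of their group averages and SDs with another, so the 1018 clusters hold 965 distinct sets of values.

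Values for single arrays were used for the 127 precursor clusters in the signal table, which holds 11121 clusters in all, namely those that differed among the 3 groups in an overall F test. The other precursor clusters were tested from the group averages and SDs. Array medians over the signal table ran between 5.45 and 5.66. In PPE against normal aorta, called clusters included 3 of 6 smooth muscle markers and 3 of 4 endothelial markers, all lower, and 3 of 5 macrophage markers, Ptprc (leukocytes) and Jchain (1 of 3 B-lineage markers), all higher. No marker of T cells, neutrophils, fibroblasts, adipocytes, mesothelium, skeletal or cardiac muscle, red blood cells, nerve or sympathetic ganglia was called.

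First, PPE aneurysms were compared with normal aortas, which addresses how the diseased wall differs from the healthy one. Of the 1018 precursor clusters, 18 were called (adjusted p under 0.05, Benjamini-Hochberg over all clusters), 15 lower and 3 higher in PPE, or 1.77% against 3.96% of all clusters. The lower calls made up 1.47% against 2.61% of all clusters and the higher calls 0.295% against 1.35%. At an unadjusted p below 0.05 there were 164 precursor clusters, 127 lower and 37 higher, or 16.1% against 19% of all clusters. With an unadjusted p below 0.05 and at least a 2-fold change there were 14, or 1.38% against 2.44% of all clusters. The median difference was -0.05 (log2) for precursor clusters and -0.02 for all clusters. Without normal aorta 3, PPE 2, PPE 3 or PPE 4, the 18 calls became 10, 11, 7 and 7. Here and below, an array was left out only for clusters with values per array.

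**Figure D1:**
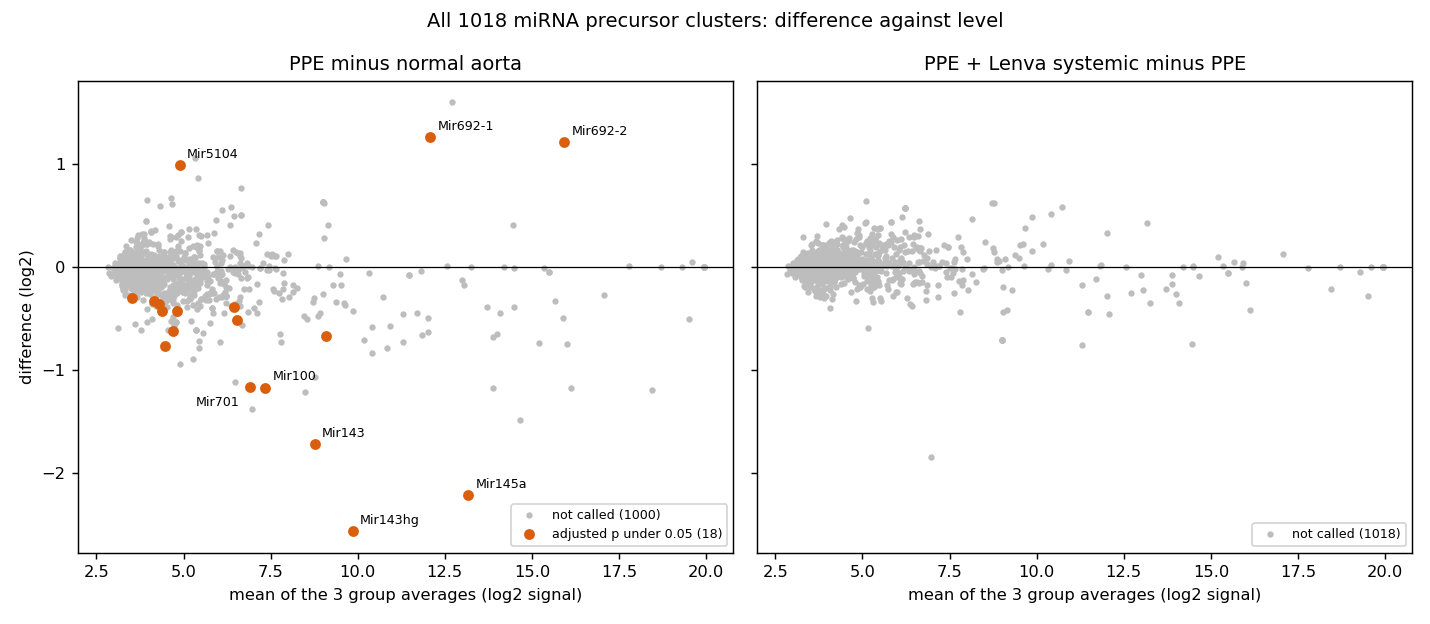
Difference (log2, vertical axis) against level (mean of the 3 group averages, log2 signal, horizontal axis) for the 1018 miRNA precursor clusters, with PPE minus normal aorta on the left and PPE + Lenva systemic minus PPE on the right. Orange points mark the 18 clusters with an adjusted p under 0.05 in PPE against normal aorta; none is marked on the right.

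Among the calls, the 3 largest decreases were those of the Mir143hg locus, which RefSeq names Carmn (chr18:61645878-61665538, minus strand, mm10). Mir143hg is a noncoding transcript that spans the hairpins of Mir145a and Mir143, the miRNA pair of contractile smooth muscle. Its log2 signal lay between 8.61 and 9.18 in PPE (median 8.85), against 12.26, 11.36, 12.04, 11.06 and 10.44 in normal aorta. No PPE array reached the lowest normal aorta. The difference was -2.57 (log2, SE 0.34, adjusted p = 0.000489 by limma), a 5.95-fold decrease.

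The hairpin clusters inside it fell as well. Mir143 (chr18:61649190-61649269) lay between 7.53 and 8.52 in PPE (median 8.02), against 10.26, 8.89, 10.90, 9.47 and 9.32 in normal aorta, a difference of -1.72 (SE 0.38, adjusted p = 0.0187 by limma). Mir145a (chr18:61647816-61647903), the brightest of the called clusters after Mir692-2, lay between 11.65 and 12.52 in PPE (median 12.24), against 15.33, 13.47, 15.83, 14.53 and 12.90 in normal aorta, a difference of -2.22 (SE 0.53, adjusted p = 0.0259). For both hairpins the PPE arrays lay below every normal aorta, and the PPE arrays spread less widely than the normal aortas (SD 0.34 in PPE and 0.80 in normal aorta for Mir143, 0.32 in PPE and 1.23 in normal aorta for Mir145a).

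The call of Mir143hg held when any 1 array was left out. That of Mir143 was lost without normal aorta 3 (-1.44, adjusted p = 0.0570 by limma). That of Mir145a was lost without normal aorta 1 (-1.99, adjusted p = 0.0609), normal aorta 3 (-1.86, 0.0790), PPE 3 (-2.11, 0.0544) or PPE 4 (-2.18, 0.0588). With the replicate number as a block, Mir143 (adjusted p = 0.106 by limma) and Mir145a (0.121) lost the call, and Mir143hg kept it (0.0129). Smooth muscle markers moved with the locus. Of 6, Myh11, Cnn1 and Smtn were called lower, and marker levels ran from 6.56 to 17.33 in PPE and 7.56 to 17.74 in normal aorta. The summed linear signal was 184980 in PPE and 434461 in normal aorta. The largest part of each sum came from Tagln, the brightest marker, which was not called (adjusted p = 0.0561 by limma). The part of these markers in the result was not tested.

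**Figure D2:**
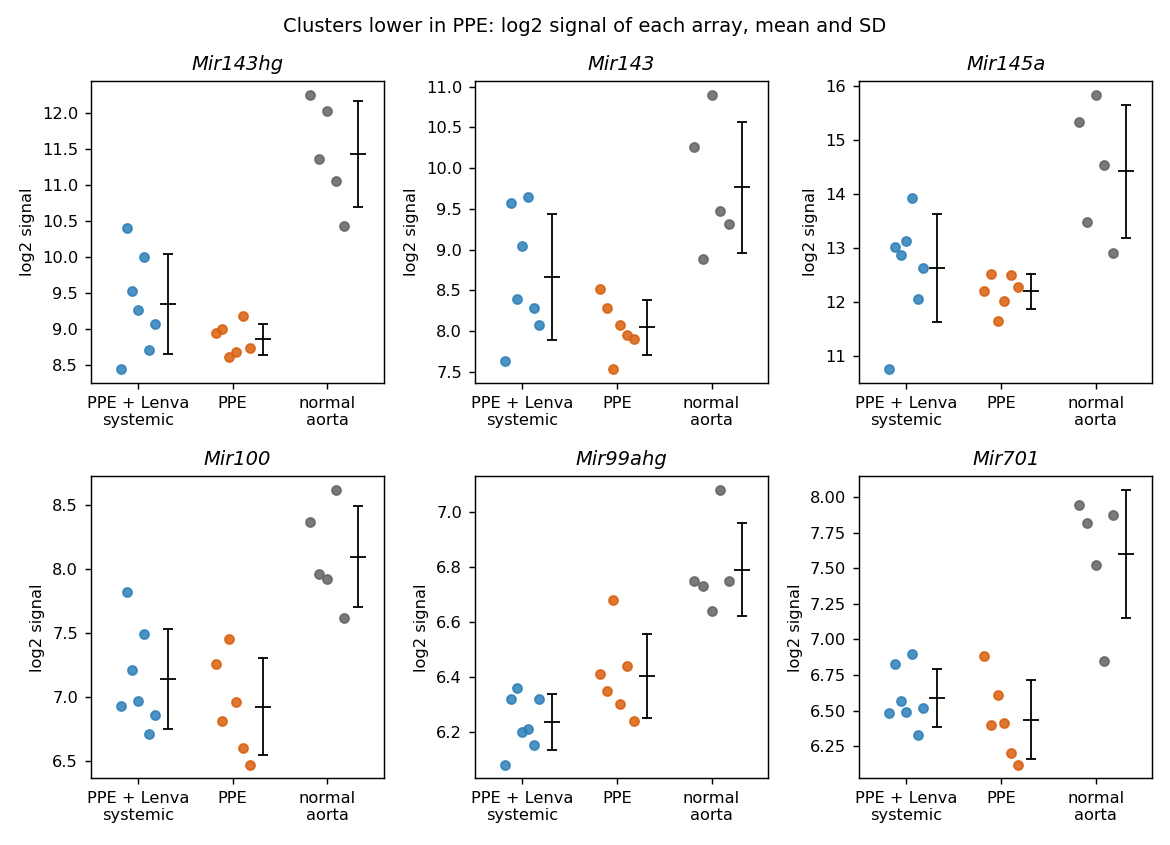
Log2 signal of each array for 6 clusters called lower in PPE than in normal aorta, with groups on the horizontal axis and the mean and SD to the right of the points. For Mir143hg, Mir143, Mir145a and Mir100 every PPE array lies below every normal aorta, whereas single arrays of PPE overlap normal aorta for Mir99ahg and Mir701.

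The Mir100 and Mir99ahg transcripts were called lower too, whose miRNAs have the sequences printed above. The Mir100 cluster is a complex of transcripts (chr9:41405374-41532087, plus strand) with the miR-100 hairpin near its 3′ end. In endothelium and smooth muscle, miR-100 is known to restrain mTOR. Its log2 signal lay between 6.47 and 7.45 in PPE (median 6.89), against 8.37, 7.96, 7.92, 8.62 and 7.62 in normal aorta, so the groups did not overlap. The difference was -1.17 (SE 0.22, adjusted p = 0.00714 by limma), a 2.26-fold decrease.

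Mir99ahg (chr16:77236317-77691403, plus strand) lay between 6.24 and 6.68 in PPE (median 6.38), against 6.75, 6.73, 6.64, 7.08 and 6.75 in normal aorta. Only PPE 3, at 6.68, lay above the lowest normal aorta. The difference was -0.39 (SE 0.08, adjusted p = 0.0157 by limma), which missed the threshold when only the arrays of PPE and normal aorta were fitted (adjusted p = 0.0511). The Mir100 and Mir99ahg calls each held when any 1 array was left out. With the replicate number as a block, the Mir100 call held (adjusted p = 0.0455 by limma) and the Mir99ahg call was lost (0.0845).

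The clusters of the single miRNAs at both loci did not pass the test. On chromosome 16, within Mir99ahg, Mir99a differed by -0.29, Mirlet7c-1 by -0.38 and Mir125b-2, a cluster of 3154 bases, by -0.19 (log2, PPE minus normal aorta). On chromosome 9, downstream of the Mir100 cluster, Mirlet7a-2 differed by 0.09 and Mir125b-1 by 0.30. Endothelial markers moved with Mir100, which stands on the endothelial list: Pecam1, Vwf and Tek of 4 were called lower, marker levels ran from 7.66 to 10.64 in PPE and 9.62 to 12.32 in normal aorta, and the summed linear signal was 3600 in PPE and 9667 in normal aorta. Their part in the result was not tested.

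Mir701 (chr5:111004144-111004252, plus strand) is a hairpin within Ttc28. It lay between 6.12 and 6.88 in PPE (median 6.41), against 7.94, 7.82, 7.52, 6.85 and 7.87 in normal aorta, and only PPE 1, at 6.88, lay above the lowest normal aorta. The difference was -1.16 (SE 0.18, adjusted p = 0.00148 by limma), and the call held when any 1 array was left out. Mir196a-2 (chr15:102973341-102973450), a hairpin of the Hoxc gene cluster whose miRNA is known to target Hox mRNAs, lay between 4.04 and 4.44 in PPE (median 4.23), against 4.70, 4.62, 4.50, 4.82 and 4.60 in normal aorta. Its groups did not overlap, its difference was -0.43 (SE 0.09, adjusted p = 0.0100), and this call also held without any 1 array. With the replicate number as a block, the Mir196a-2 call was lost (adjusted p = 0.0819 by limma) and the Mir701 call held (0.0110).

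The other 8 clusters called lower had differences between -0.30 and -0.77. Mir6964 (chr16:97877233-97877291, within C2cd2) averaged 4.13 (SD 0.23) in PPE and 4.90 (SD 0.38) in normal aorta in the deposited table, a difference of -0.77 (adjusted p = 0.0159 by limma's moderated statistic), and it has no values for single arrays here. The call rests on the deposited averages and SDs alone, whereas the authors' overall F p for this cluster was at least 0.05. Why these tests differ was not tested. Mir7005 (within Lama5) differed by -0.67, Mir7224 (within B3galt1) by -0.62, Mir505 by -0.52, Mir6918 (within Nipsnap1) by -0.43 and Mir7681 by -0.36. Mir302d, of a hairpin group known from pluripotent cells, differed by -0.33 and Mir3108 (within Zfhx3) by -0.30. Both were dim and flagged as expressed in normal aorta only. Mir302d averaged 3.95 in PPE and 4.35 in normal aorta, and Mir3108 3.43 and 3.69. Adjusted p values of these 8 clusters by limma ran from 0.0159 to 0.0468. Those of them with values per array each lost the call in 7 to 9 of the 11 fits that left out 1 array.

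A smaller set of 3 clusters was higher in PPE. Mir692-1 (chr17:6895229-6895337, minus strand) lay between 12.09 and 12.69 in PPE (median 12.48), against 11.62, 11.81, 9.54, 11.74 and 11.11 in normal aorta. Every PPE array lay above every normal aorta, and normal aorta 3 stood well below the other normal aortas. The difference was 1.26 (SE 0.31, adjusted p = 0.0306 by limma), and the call was lost without PPE 2 (1.25, adjusted p = 0.0586), PPE 3 (1.25, 0.0557) or PPE 4 (1.21, 0.0730) and under 5 of 7 other settings, among them quantile normalization (0.82, 0.201).

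The cluster named Mir692-2 lies on chromosome 13 (chr13:74406396-74407317), while RefSeq places that gene on chromosome 4. It lay between 16.21 and 16.50 in PPE (median 16.31), against 16.21, 15.49, 13.60, 15.56 and 14.66 in normal aorta. Again normal aorta 3 was lowest, and the lowest PPE arrays equalled the highest normal aorta. The difference was 1.21 (SE 0.33, adjusted p = 0.0493 by limma) and, without normal aorta 3, 0.84 (adjusted p = 0.0877). This call was lost in 10 of 11 fits that left out 1 array and under 5 of 7 other settings.

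Mir5104 (chr10:7836381-7836474, within Zc3h12d) lay between 4.40 and 5.55 in PPE (median 5.26), against 4.18, 4.22, 4.0, 3.97 and 4.53 in normal aorta. Only PPE 5, at 4.40, fell within the range of normal aorta. The difference was 1.00 (SE 0.27, adjusted p = 0.0496 by limma), and the call was lost in 9 of 11 fits that left out 1 array.

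The immune list, miRNAs known from leukocytes, held 21 clusters and none was called. With an unadjusted p below 0.05, 5 were higher and 1 lower, beside 7.58% higher and 11.4% lower over all clusters. Of the 5, 2 were clusters named Mir342 with identical values, so the list of 21 clusters holds 20 symbols. The median difference of the list was -0.03 against -0.05 for all precursor clusters. Mir155 (chr16:84713023-84715244), the primary transcript of an inflammatory miRNA of macrophages and lymphocytes, lay between 5.04 and 6.42 in PPE (median 5.63), against 4.65, 4.55, 5.11, 4.92 and 4.63 in normal aorta. Only PPE 5, at 5.04, lay below the highest normal aorta, and the difference was 0.87 (SE 0.33, adjusted p = 0.145 by limma). Mir146, which RefSeq places at the miR-146a locus (chr11:43371017-43374461, minus strand) and which is known to damp NF-kB signalling, differed by 0.67 (SE 0.22, adjusted p = 0.0970), with PPE 5 and PPE 6, at 4.20 and 4.38, inside the range of normal aorta. Without PPE 5 its difference was 0.80 and passed (adjusted p = 0.0352).

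Mir511 (chr2:14261003-14261081) lies in an intron of Mrc1, the mannose receptor of macrophages. It averaged 6.78 (SD 0.49) in PPE and 6.01 (SD 0.49) in normal aorta, a difference of 0.77 that did not pass (adjusted p = 0.133 by limma's moderated statistic), whereas the Mrc1 cluster differed by 1.47 (adjusted p = 0.0392). Mir342 (within Evl) differed by 0.51 and Mir15b (within Smc4, on the miR-15/16 list) by 0.61, neither called. Macrophage markers moved in the same direction. Cd68, Adgre1 and Csf1r of 5 were called higher, and marker levels ran from 9.64 to 19.03 in PPE and 8.01 to 17.31 in normal aorta. The summed linear signal was 547827 in PPE and 165037 in normal aorta. Nearly all of each sum came from Lyz2, the brightest marker, which was not called (adjusted p = 0.0514 by limma). The part of these markers in the values above was not tested.

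**Figure D3:**
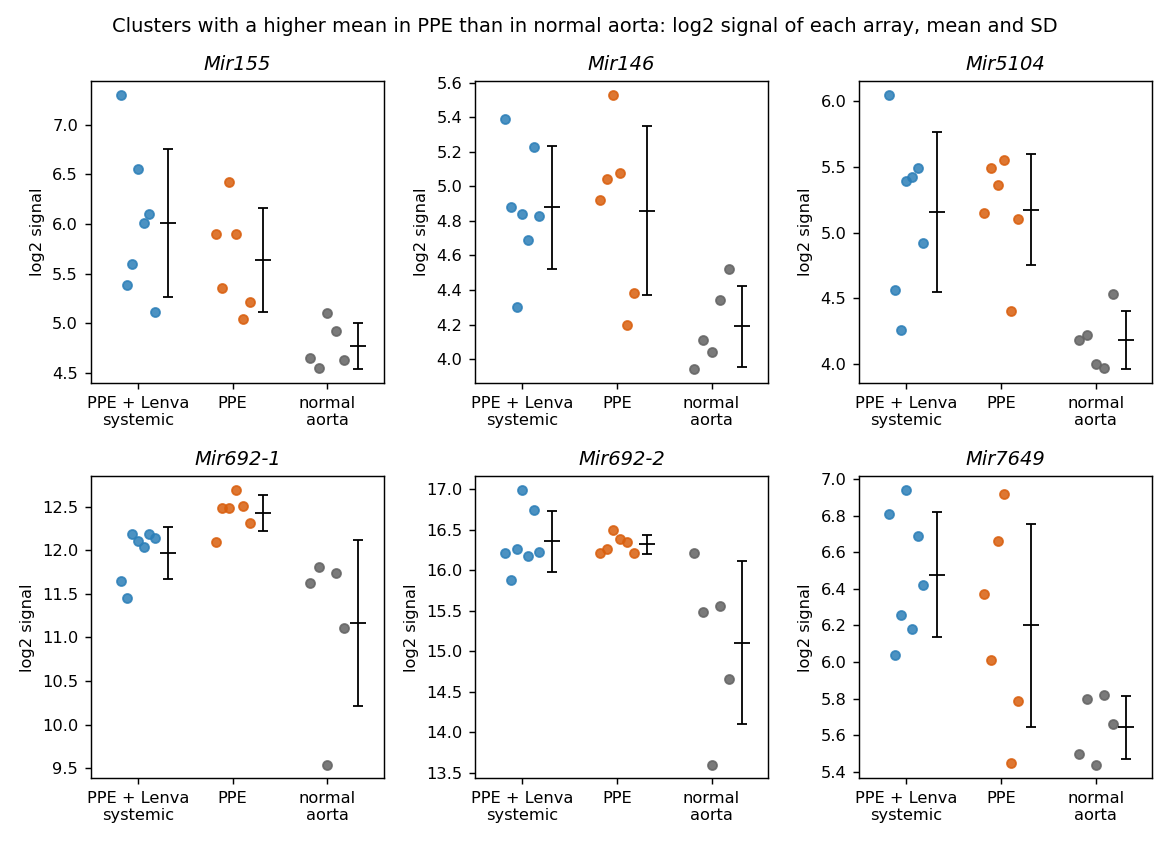
Log2 signal of each array for 6 clusters with a higher mean in PPE than in normal aorta, with groups on the horizontal axis and the mean and SD to the right of the points. Every PPE array lies above every normal aorta for Mir692-1, while 1 or more PPE arrays reach the range of normal aorta for the other 5.

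Other lists were drawn from families and loci with known roles. On the smooth muscle list of 29 clusters, the 3 calls were Mir143hg, Mir145a and Mir143, beside 2.61% called lower over all clusters. These 3 overlap at the same locus, and a hairpin cluster also reads host RNA, so they are not independent. A further 6 clusters were lower and 1 higher with an unadjusted p below 0.05, beside 11.4% lower and 7.58% higher over all clusters. The higher one was Mir222, whose miRNA is known to favour smooth muscle growth, with a difference of 0.27 (SE 0.07, adjusted p = 0.0531 by limma). Mir222 was dim, at averages of 3.61 in PPE and 3.39 in normal aorta, and flagged as expressed in PPE only. On the endothelial list of 16 clusters, Mir100 was the 1 call, and Mir218-2 (within Slit3) differed by -0.53 (SE 0.15, adjusted p = 0.0511). Mir222 and Mir218-2 each passed the test in 4 of the alternative fits run, among them the fit without normal aorta 5 (0.30, adjusted p = 0.0379, and -0.59, adjusted p = 0.0422). Mir23a, Mir27a and Mir24-2, neighbours on chromosome 8, differed by -0.30, -0.37 and -0.32 without a call.

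No cluster was called on the lists for matrix and fibrosis (22 clusters), let-7 (12), miR-15/16 (7), miR-17/92 type (5), miR-200 (8), striated muscle (10) or the Dlk1-Dio3 domain (44). The median differences of these lists ran from -0.17 for let-7 to 0.03 for miR-15/16. Mir29a, of a family known to repress collagen mRNAs, differed by 0.40 (SE 0.13, adjusted p = 0.0899 by limma), and of the let-7 list Mirlet7d, Mirlet7e and Mirlet7g were lower with an unadjusted p below 0.05, by 0.21 to 0.37 on the log2 scale. In the imprinted Dlk1-Dio3 domain on chromosome 12, 7 of 44 clusters were lower and 1 higher at that level, Mir341 by -0.45, beside 11.4% lower and 7.58% higher over all clusters.

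A further list took the miRNA names found in an intron of Sfmbt2, a large rodent repeat of related hairpins. It held 93 clusters with a median difference of -0.33, and 25 were lower and 0 higher with an unadjusted p below 0.05, beside 11.4% lower and 7.58% higher over all clusters. None was called. Of the 61 clusters in Sfmbt2, 58 had a negative difference (median -0.31), and so had all 32 that carry such a name elsewhere (median -0.44), of which 22 were 1 kb or wider. Sequence is shared within this list, so its clusters are not independent.

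Within the list, Mir669m-1 in Sfmbt2 (chr2:10512790-10512887) averaged 8.41 (SD 0.40) in PPE and 9.48 (SD 0.54) in normal aorta, a difference of -1.07 (SE 0.32, adjusted p = 0.0704 by limma). Mir467b differed by -0.79 (adjusted p = 0.0561) and passed without normal aorta 2 (-0.95, adjusted p = 0.0302). The Sfmbt2 cluster itself was dim, at 4.03 in PPE and 4.12 in normal aorta, and differed by -0.13 (adjusted p = 0.0742).

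**Figure D4:**
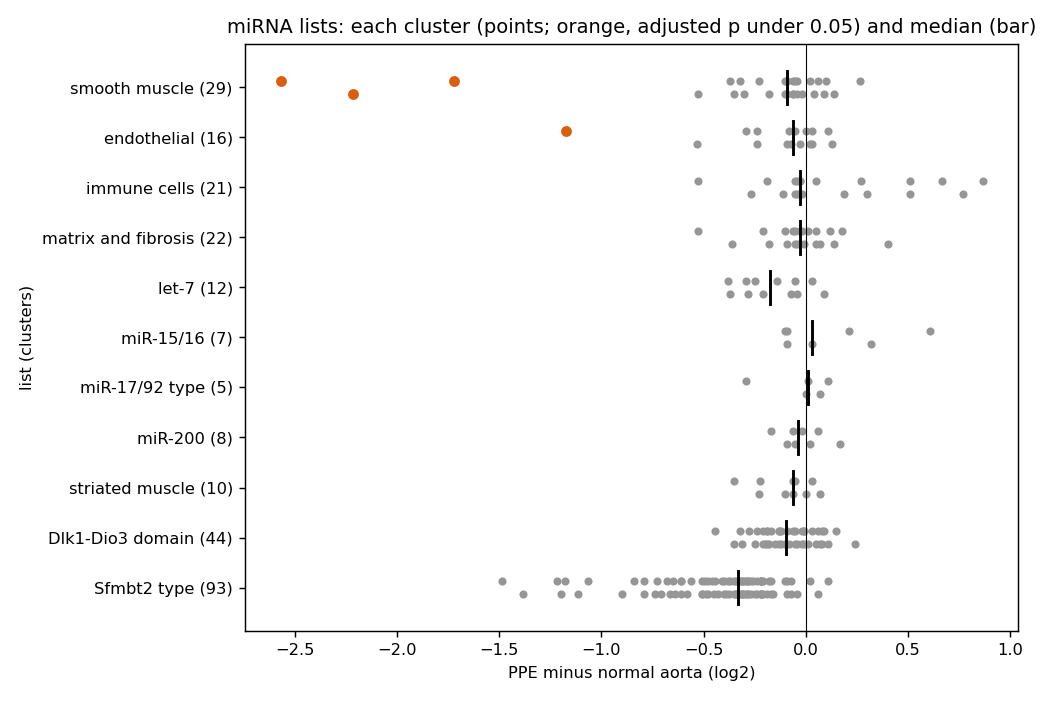
PPE minus normal aorta (log2, horizontal axis) for each cluster of 11 miRNA lists, 1 point per cluster, with the number of clusters beside each list name and a bar at the median. Orange points are called, 3 on the smooth muscle list and 1 on the endothelial list; the Sfmbt2 type list has its median at -0.33.

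Precursor clusters were also set beside their host transcripts. On the same strand, 504 lay within a wider cluster of another symbol, of 411 symbols in all. In PPE against normal aorta, 40 of these 504 had a called host and 10 were themselves called, beside 3.96% called over all clusters. A host was counted once for each precursor cluster within it. Of the 10, 5 were called with their host and in the same direction. These 5 were Mir143 and Mir145a (Mir143hg), Mir701 (Ttc28, -0.69), Mir7005 (Lama5, a basement membrane laminin, -0.65) and Mir7224 (B3galt1, -1.32). Where the host was called higher, 18 times, the median difference of the precursor cluster was 0.13, and where it was called lower, 22 times, it was -0.26.

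Some called hosts changed by over 2 on the log2 scale around a precursor cluster that was not called. Slamf7 differed by 2.82 and Mir7683 within it by 0.45, C3 by 2.22 and Mir6978 by 0.00, and Fcgr3 by 2.03 and Mir6546 by 0.05. Conversely, 5 precursor clusters were called while their hosts were not, among them Mir6964, Mir6918, Mir3108 and Mir5104 (host differences -0.33, -0.11, -0.23 and 0.30). That such a pair differs in its change was not tested. Across the 504 pairs, which share arrays and in part hosts, Pearson's r of the differences was 0.416 as a description.

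**Figure D5:**
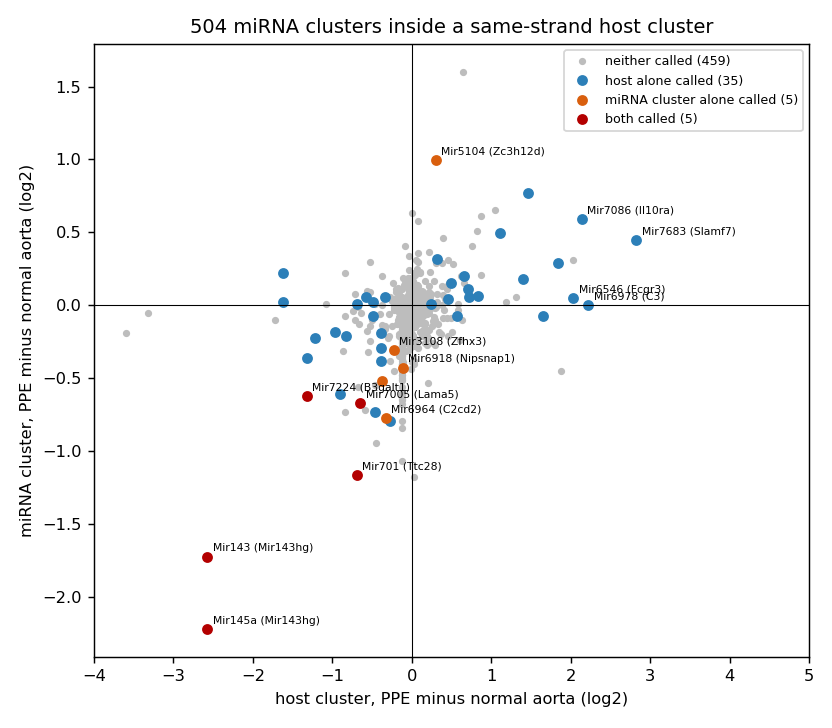
PPE minus normal aorta (log2) of 504 precursor clusters (vertical axis) against that of the same-strand host cluster around them (horizontal axis), coloured by which of the pair was called. In 5 pairs both were called, in 35 only the host and in 5 only the precursor cluster.

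The genes that make and load miRNAs were read from 23 clusters, and none was called in any of the 3 comparisons. Dgcr8 was not among them. In PPE against normal aorta, 5 were higher and 3 lower with an unadjusted p below 0.05, beside 7.58% higher and 11.4% lower over all clusters. Dicer1, the cytoplasmic processing enzyme, differed by -0.19 (SE 0.05, adjusted p = 0.0541 by limma), and Adar, an RNA editing enzyme, by 0.52 (SE 0.19, adjusted p = 0.124). Ago2, the slicing Argonaute, differed by 0.19 (adjusted p = 0.243).

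Second, PPE + Lenva systemic was compared with PPE, which addresses the effect of the drug together with its gavage in DMSO on the aneurysm wall. By limma, 0 of the 1018 precursor clusters and 0% of all clusters were called. At an unadjusted p below 0.05 there were 75 precursor clusters, 46 higher and 29 lower, or 7.37% against 5.97% of all clusters (higher 4.52% against 3.53%, lower 2.85% against 2.44%). With at least a 2-fold change added, 0 precursor clusters remained, against 0.153% of all clusters.

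The smallest p was that of Mir7039 (chr5:144896732-144896816, minus strand), a hairpin within Smurf1, which encodes a ubiquitin ligase. It lay between 5.39 and 5.63 in PPE + Lenva systemic (median 5.53) and between 4.98 and 5.31 in PPE (median 5.13), against 5.32, 5.29, 5.45, 5.20 and 5.35 in normal aorta. The lenvatinib and PPE arrays did not overlap, with a difference of 0.38 (SE 0.06, adjusted p = 0.156 by limma). Among the next smallest p values were those of Mir3090 (0.21), Mir5103 (-0.25) and Mir694 (-0.60).

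The clusters of the Mir143hg locus had higher means in PPE + Lenva systemic than in PPE without a call. Mir143hg lay between 8.44 and 10.41 in PPE + Lenva systemic (median 9.27), with 4 of 7 arrays above the highest PPE array, at 9.18, and the difference was 0.49 (SE 0.32, adjusted p = 0.931 by limma). Mir143 differed by 0.62 (SE 0.35, adjusted p = 0.900) and Mir145a by 0.43 (SE 0.48, adjusted p = 0.992). Of the Sfmbt2 clusters, which share sequence and are not independent, 46 of 61 had a positive and 12 a negative difference. Their median was 0.15, against 0.01 for all clusters, and none was called. With an unadjusted p below 0.05, 9 were higher and 0 lower, beside 3.53% higher and 2.44% lower over all clusters. Of the 32 with such a name elsewhere, 20 had a positive and 11 a negative difference (median 0.06, lowest -1.85), with 0 higher and 0 lower at that level. Mir100 differed by 0.22 and Mir99ahg by -0.17.

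Finally, PPE + Lenva systemic was set against normal aorta, with the same normal arrays as before. Of the precursor clusters, 28 were called, 21 lower and 7 higher, or 2.75% against 6.05% of all clusters. The lower calls made up 2.06% against 3.33% of all clusters and the higher calls 0.688% against 2.72%. At an unadjusted p below 0.05 there were 160 precursor clusters, or 15.7% against 20% of all clusters, and 15 with at least a 2-fold change added, or 1.47% against 2.54%. The 28 calls became 17, 17, 14 and 16 without normal aorta 1, 2, 3 or 4, and 18, 14 and 13 without PPE + Lenva systemic 1, 4 or 6. Clusters called in both comparisons with normal aorta numbered 13, with 15 called in this one only and 5 in PPE only.

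Mir143hg differed by -2.08 (SE 0.33, adjusted p = 0.00191 by limma), Mir701 by -1.01 (adjusted p = 0.00317), Mir99ahg by -0.56 (adjusted p = 0.000971) and Mir100 by -0.96 (adjusted p = 0.0164), and each of these calls held when any 1 array was left out. With the replicate number as a block, only the Mir100 call among them was lost (adjusted p = 0.0902). Mir145a differed by -1.79 (SE 0.51, adjusted p = 0.0463), a call lost in 9 of 12 such fits, and Mir143 by -1.11 (SE 0.37, adjusted p = 0.0898) without a call. Of the 6 smooth muscle markers 0 were called in this comparison. Each had a negative difference, the largest for Myh11 (-1.76, adjusted p = 0.0730 by limma), Cnn1 (-1.60, 0.0838) and Smtn (-1.09, 0.0809). Their summed linear signal was 234014 in PPE + Lenva systemic and 434461 in normal aorta. The largest part of each sum came from Tagln. All 4 endothelial markers were called lower, with a summed signal of 3433 in PPE + Lenva systemic and 9667 in normal aorta, and the part of these markers in the results was not tested.

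Mir1192 (chr19:23148429-23150668), a cluster within Klf9, lay between 6.52 and 7.79 in PPE + Lenva systemic (median 7.33), against 8.65, 8.82, 8.68, 8.07 and 8.14 in normal aorta. The groups did not overlap, and the difference was -1.17 (SE 0.24, adjusted p = 0.0106 by limma), a call that held without any 1 array. In PPE it lay between 7.32 and 8.55, and its difference from normal aorta was -0.73 (adjusted p = 0.111). That difference passed the test from the authors' averages (-1.18, adjusted p = 0.0117), with array weights and without PPE 6. Klf9 around it differed by -1.15 in PPE + Lenva systemic against normal aorta (adjusted p = 0.0803).

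Among clusters higher than in normal aorta, Mir155 lay between 5.12 and 7.30 in PPE + Lenva systemic (median 6.01), all above the highest normal aorta at 5.11. The difference was 1.24 (SE 0.32, adjusted p = 0.0303 by limma), and the call was lost in 6 of 12 fits that left out 1 array. Mir511 averaged 7.15 (SD 0.49) in PPE + Lenva systemic and 6.01 (SD 0.49) in normal aorta, a difference of 1.14 (adjusted p = 0.0214), beside 1.32 for Mrc1 (adjusted p = 0.0427). The Mir511 call rests on deposited averages and SDs alone, whereas the authors' overall F p for this cluster was at least 0.05. Why these tests differ was not tested. All 5 macrophage markers, Cd68, Adgre1, Csf1r, Itgam and Lyz2, were called higher in this comparison. Their summed linear signal was 544239 in PPE + Lenva systemic and 165037 in normal aorta, nearly all of it from Lyz2. The part of these markers in the results was not tested.

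The cluster named Mir7649 on chromosome 6, at a place where RefSeq has no such gene, lay between 6.04 and 6.94 in PPE + Lenva systemic (median 6.42), above all normal aortas (5.44 to 5.82), a difference of 0.83 (SE 0.22, adjusted p = 0.0348 by limma) lost in 7 of 12 fits that left out 1 array. The cluster named Mir669h on chromosome 10, whose RefSeq gene lies in Sfmbt2, was lower with an adjusted p of 0.0474 by limma, a call lost in 11 of 12. Its normal aortas lay at 19.16 to 19.93 and normal aorta 5 was at the ceiling of the scale, so the size of the difference is not given. Mir5104 was higher here too, by 0.98, a call lost in 8 of 12 fits that left out 1 array and under 3 of 7 other settings. Mir692-2 was higher by 1.25, a call lost in 4 of 12 and under 4 of 7. Whether PPE + Lenva systemic and PPE differ for any of these clusters is given by the comparison of those groups, in which none was called.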

How the data were processed

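Total RNA (RNA integrity number 5.7 to 9.8) was hybridised to Mouse Transcriptome Array 1.0, 18 arrays in all. Probes were summarised by the authors as SST-RMA log2 values (Transcriptome Analysis Console, version 4.0.1.36, and build mm10 per the submitters' processing notes). They deposited log2 signals per array for 11121 clusters, whose overall F p was found to be at most 0.05 in each case, and log2 group averages, SDs and expressed flags for 65956. The deposited averages are not plain means. The authors' fold changes, p-values and F tests were not used otherwise.

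All 3 groups were fitted together with limma 3.58.1 in R 4.3.3. Clusters without array signals received the same moderated statistic from averages and SDs, with 1 variance prior over all clusters (1.72 df). P-values were adjusted (Benjamini-Hochberg) over 65956 clusters. The number of arrays limits precision, and no technical batches are stated. Code was tested on simulated data.

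Residuals of same-numbered arrays had no common sign of correlation (-0.575 to 0.492 over 16 pairs), so numbers were not treated as pairs. Arrays numbered 4 were positively correlated in each pair of groups (0.492, 0.421 and 0.303). No 2 arrays shared over 2.31% of values. Named were called clusters (at most 15 per direction), the 5 with smallest p where fewer than 5 were called, the 10 brightest and up to 6 per list. Mir99a, Mir125b-1, Mir125b-2, Mirlet7a-2, Mir23a, Mir24-2, Mir6978, Mir7683 and Mir6546 fall outside this rule and were chosen after their values were seen. Hosts are same-strand clusters of another symbol that span a member, and 1 host is not reported here. Members, lists and markers were chosen with earlier results of these data known. Clusters matched RefSeq (GRCm38.p6) by symbol or synonym in 1003 cases.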

Additional observations from a re-analysis of the deposited data

Results flagged for a closer look

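Groups of arrays were screened for a single array far from its group, over the clusters called in a comparison that have values per array, and over array medians. Of 93 groups, 4 had such an array, where chance flags about 1 in 20 groups. For Mir99ahg, normal aorta 4 stood at 7.08, above the next normal aorta at 6.75. For Mir7681, PPE + Lenva systemic 1 stood at 3.75, below the next at 4.16. For Mir883b, PPE 2 stood at 3.20, below the next at 3.37. For Mir7071, 1 normal aorta stood at 3.13, above the next at 3.0. The cause was not tested.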

How the results depend on the processing

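In PPE against normal aorta, the 18 precursor clusters called became 26 with array weights and 21 with quantile normalization. They became 10 with no variance prior and 7 to 17 when 1 array was left out. The 2610 calls over all clusters became 4108 with array weights, 1609 with an unadjusted p and a 2-fold change, and 1366 to 3507 when 1 array was left out. In PPE + Lenva systemic against PPE, precursor calls stayed at 0 in every setting, and calls over all clusters were 1 with array weights, 101 with the 2-fold rule and 0 to 1 when 1 array was left out. In PPE + Lenva systemic against normal aorta, the 28 precursor calls became 12 with only those arrays fitted, 15 with the 2-fold rule and 13 to 30 when 1 array was left out, and the 3992 over all clusters became 2572, 1678 and 1990 to 4314. Quantile normalization gave 39 precursor calls in that comparison and 4482 over all clusters. With the replicate number as a block, precursor calls were 5 in PPE and 7 in PPE + Lenva systemic against normal aorta. Over all clusters they were 1127 and 1548. Residual correlations of same-numbered arrays had no common sign. Leaving out or weighting arrays, quantile normalization and the replicate block acted only on the 11121 clusters with values per array. All others kept their averages and SDs from all 18 arrays, and the variance prior was not refitted for these settings. The cause of these shifts was not tested. Counting identical values once (18, 28 becoming 27), or using only clusters at their RefSeq gene (17 and 23) or with values per array (17 and 26), were settings chosen after seeing the data.

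For PPE against normal aorta, differences near 0 turned sign for clusters that were never called there. Quantile normalization gave 0.0066 for Mir3090 (both clusters), 0.0445 for Mir7022 and 0.0178 for Mir7054. Mir6541 gave 0.0100 from the authors' averages, 0.0185 with array weights and -0.070 to 0.042 when 1 array was left out. Mir680-2 gave 0.0503 with array weights, 0.0405 with the replicate block and -0.048 to 0.0408 when 1 array was left out. With 5 to 7 arrays a group, a difference that was not called is not shown to be absent.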
